A study of Mus musculus with 2 samples.

Results

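The leukocyte miRNAs described here are 7 of the 1973 miRNA gene rows counted in fetal mouse liver. They were taken by name, not by level, and their rows are Mir223, Mir142b, Mir146, Mir146b, Mir150, Mir155 and Mir342. Each row was matched to its name through the versionless Ensembl identifier in the GENCODE mouse annotation. For Mir142b the count on the strand opposite to the annotated gene was used, because that is the strand of Mir142, which has no row of its own. That count is called Mir142 below. Whole liver was taken at embryonic day 16.5 from B6NCrl mice, described as healthy, and small RNA was sequenced from total RNA. The 2 libraries are biological replicates of 1 group, and each pooled the livers of male and female embryos. The pool of replicate 2 came from 41 embryos, and for replicate 1 the labels give no number. There was no treatment, mutant or second stage, so no condition could be compared, and what is given is the level of each miRNA and its spread over the pools.

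A miRNA is cut from a hairpin precursor into a short strand that guides Argonaute proteins to messenger RNAs, and bases 2 to 8 of that strand, the seed, do most of the pairing. The fetal liver is a site of blood formation before the bone marrow takes over, so hepatocytes there lie among erythroid, myeloid and stem cells. Among blood cells, miR-142 is made in nearly all hematopoietic lineages, and miR-223 mainly in granulocytes and monocytes. The miRNA miR-155 is induced in activated lymphocytes and macrophages, and miR-150 accumulates in mature B and T cells, where it restrains the transcription factor Myb. The miRNA miR-146a is induced by NF-kB, and both miR-146a and miR-146b restrain Traf6 and Irak1, which carry signals from innate immune receptors. From an intron of the actin regulator gene Evl, miR-342 is made.

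Mature sequences are shown because the strand and the family of a count decide which miRNA it can stand for. They are from RefSeq on build GRCm38.p6, given 5′ to 3′ with the seed in capitals. Shown are products of Mir142, Mir142b, Mir223, Mir342 and Mir155, and the pair with a common seed.
miR-142a-5p (chr11:87756867-87756887, plus strand): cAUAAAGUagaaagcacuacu
miR-142a-3p (chr11:87756903-87756925, plus strand): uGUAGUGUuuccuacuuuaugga
miR-142b (chr11:87756906-87756925, minus strand): uCCAUAAAguaggaaacacu
miR-223-5p (chrX:96242842-96242864, plus strand): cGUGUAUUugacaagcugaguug
miR-223-3p (chrX:96242884-96242905, plus strand): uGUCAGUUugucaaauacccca
miR-342-3p (chr12:108658680-108658702, plus strand): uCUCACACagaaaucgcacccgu
miR-155-5p (chr16:84714143-84714165, plus strand): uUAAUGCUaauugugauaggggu
miR-146a-5p (chr11:43374435-43374456, minus strand): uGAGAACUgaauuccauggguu
miR-146b-5p (chr19:46342790-46342811, plus strand): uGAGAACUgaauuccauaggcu

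The RefSeq table held 14 mature products for the 7 members and Mir142, with 13 distinct seeds. miR-150-5p is named only. The 1 seed that occurred in more than 1 product was GAGAACU, carried by miR-146a-5p and miR-146b-5p. No other of the 1679 mature miRNAs in that table had the seed of any of these 14. miR-146a-5p and miR-146b-5p were identical at 20 of 22 positions, and the differences, counted from the 5′ end of miR-146a-5p, were G18A and U21C. The first 17 bases were the same in both. No other pair of members had a seed in common.

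The hairpins of Mir142 and Mir142b are shown because 1 stretch of chromosome 11 codes for both, on opposite strands. Capitals mark the mature products.
Mir142 (chr11:87756864-87756927, plus strand): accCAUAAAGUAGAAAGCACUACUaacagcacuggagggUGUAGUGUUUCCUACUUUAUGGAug
Mir142b (chr11:87756841-87756955, minus strand): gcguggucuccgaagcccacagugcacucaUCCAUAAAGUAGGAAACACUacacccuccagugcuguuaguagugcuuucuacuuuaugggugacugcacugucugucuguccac
The hairpin of Mir142 lies wholly within the interval of Mir142b. The 20 bases of miR-142b are the reverse complement of part of the 23 bases of miR-142a-3p. Without a gap, miR-142b also matched miR-142a-5p at 16 bases, since the hairpin is close to a palindrome, so the strand of a read tells these products apart. The annotated strand of the Mir142b row had 1 count in replicate 1 and 1 in replicate 2. The strand of Mir142 had 186850 counts in replicate 1 and 186235 in replicate 2. The share of the row's counts on the annotated strand in replicate 1 was 0.000535%, with a 95% Clopper-Pearson interval from 1.35e-05% to 0.00298%. In replicate 2 it was 0.000537%, with an interval from 1.36e-05% to 0.00299%. Nearly every count of the row was therefore on the strand of Mir142 in both libraries, and 1 count is below the 3 counts that a count of 0 allows.

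The other 6 rows had the reverse pattern. Mir223 had 0 counts on the opposite strand in replicate 1 and 2 in replicate 2, beside 99443 and 89440 on its own strand. Mir342, Mir146, Mir155, Mir150 and Mir146b had none on the opposite strand in either library. Across all 199 rows with 1000 or more counts over both libraries and strands, 10 had more counts opposite the annotated gene than on it, Mir142b among them. All 10 lie opposite an annotated miRNA gene that has no row in the deposited tables. The Mir142b row held 35.6% of all opposite-strand counts in replicate 1 and 40.8% in replicate 2, more than any other row in either library.

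**Figure D1:**
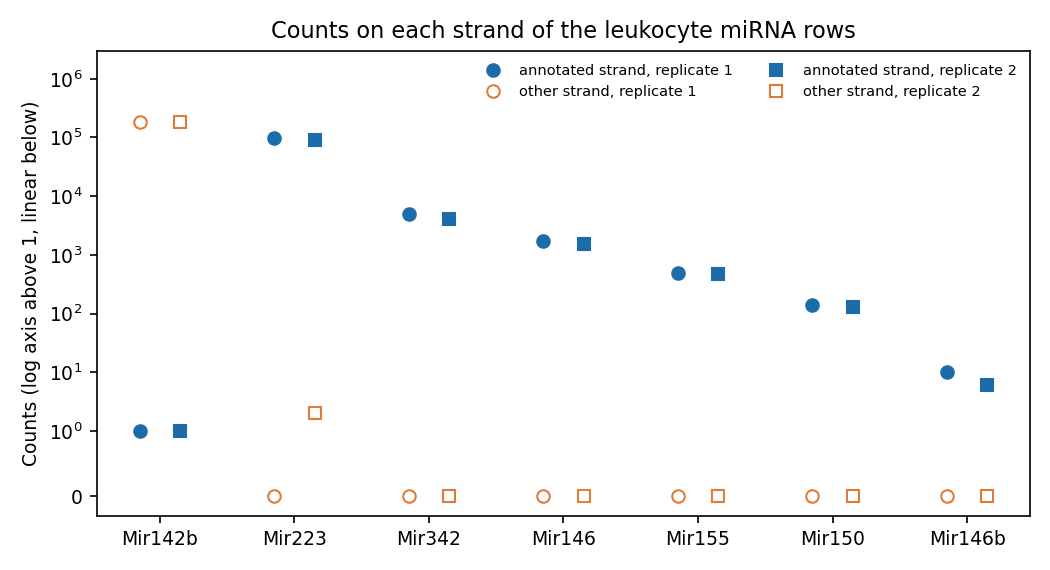
Counts on the annotated strand (filled blue) and on the other strand (open orange) of the 7 leukocyte miRNA rows, circles for replicate 1 and squares for replicate 2, on an axis that is logarithmic above 1 and linear below. Mir142b alone has its counts on the other strand, 186850 and 186235 against 1 and 1.

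Mir142, the pan-hematopoietic member, was the most abundant. Levels are in CPM, the count scaled by the annotated-strand total of its library. Mir142 was at 31509 CPM in replicate 1 and at 36500 CPM in replicate 2, with a mean of 34005 ± 3529 CPM (SD, n = 2). Placed among the annotated-strand counts of all rows it took rank 5 in both libraries. Its count cannot be split into the 5p and 3p arms, because counting was per hairpin. In the annotation the hairpin lies in an intron of the long noncoding RNA gene Mir142hg, on the same strand.

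Mir223, the granulocyte and monocyte member, was at 16769 CPM in replicate 1, 17529 CPM in replicate 2 and 17149 ± 537 CPM on average, at rank 14 in both. Its hairpin (ENSMUSG00000076066.1, chrX:96242817-96242926, plus strand) lies within an exon of the noncoding gene F630028O10Rik on the same strand. Ranks take the opposite strand for Mir142 only. The other miRNAs counted opposite a row are left out, among them Mir409, with 226423 counts over both libraries, more than Mir223. The ranks therefore place every member below Mir142 nearer the top than with those miRNAs included. In replicate 1 Mir142 was 1.88-fold above Mir223, and in replicate 2 it was 2.08-fold above. Both libraries of Mir142 lay above both of Mir223. Together Mir142 and Mir223 held 97.5% and 97.8% of the member counts, so that a sum over the group describes these 2 and little else.

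Mir342, cut from an intron of Evl (ENSMUSG00000065436.1, chr12:108658620-108658718, plus strand), had 4892 counts in replicate 1 and 4024 in replicate 2. That was 825 and 789 CPM, a mean of 807 ± 25.7 CPM, at rank 92 in both libraries. Mir223 exceeded it by 20.3-fold and 22.2-fold in replicates 1 and 2. Of the 6 steps between neighbours in the order, only that from Mir150 to Mir146b came near, at 14.1-fold and 21.5-fold. With 10 and 6 counts of Mir146b, which of these 2 steps was wider is not resolved.

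The NF-kB-induced member Mir146, which makes miR-146a (ENSMUSG00000065601.1, chr11:43374397-43374461, minus strand), had 1707 and 1539 counts. Its level was 288 CPM in replicate 1, 302 CPM in replicate 2 and 295 ± 9.74 CPM on average. It overlaps no other annotated gene. Its partner with the same seed, Mir146b (ENSMUSG00000070127.2, chr19:46342762-46342870, plus strand), lies in an intron of the protein-coding gene Mfsd13a. Mir146b had 10 counts in replicate 1 and 6 in replicate 2, or 1.69 CPM (95% Poisson interval 0.809 to 3.10) and 1.18 CPM (0.432 to 2.56). The intervals of its libraries overlap, and a count of 0 would have allowed up to 0.506 and 0.588 CPM. Mir146 was 170.7-fold above Mir146b in replicate 1 and 256.5-fold above in replicate 2, so nearly all counts assigned to a hairpin with the seed GAGAACU were those of Mir146.

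The sequences above bear on that ratio. The hairpins of Mir146 and Mir146b have 1 run of 21 bases in common, and 4 of the 48 words of 18 bases in Mir146 also occur in Mir146b. A read that lies within that run fits both genes and would be multimapping, and multimapping reads, 28.1% and 28.2% of all reads tallied, are in no gene count. Levels of both may therefore be too low, by an amount the files do not give. In the other members and in Mir142 no word of 18 bases occurred in another listed hairpin, apart from those that Mir142 and Mir142b share as opposite strands.

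Mir155 and Mir150 were lower than Mir146. Mir155, whose hairpin (ENSMUSG00000065397.1, chr16:84714140-84714204, plus strand) lies in an exon of Mir155hg, had 496 and 464 counts. That was 83.6 CPM in replicate 1, 90.9 CPM in replicate 2 and 87.3 ± 5.16 CPM on average. Mir150 (ENSMUSG00000065495.1, chr7:45121757-45121821, plus strand), which overlaps no other gene, had 141 and 129 counts, or 23.8 and 25.3 CPM. In replicate 1 Mir223 was 705-fold above Mir150, and in replicate 2 it was 693-fold above. Mir155 exceeded Mir150 by 3.52-fold and 3.60-fold. Counts of whole liver cannot tell fewer cells of a type from less RNA per cell, and this holds for every member.

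From the highest, the order was Mir142, Mir223, Mir342, Mir146, Mir155, Mir150 and Mir146b. In all 6 pairs of neighbours the lower library of the higher member lay above the higher library of the lower member, so the order was the same in both pools. With 2 libraries no exact test of an order or a ratio can reach a two-sided p below 0.5, and none is given. A bias between sequences in ligation or amplification that is the same in both libraries is not in these SDs. Whether such a bias differed between the libraries was not tested.

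**Figure D2:**
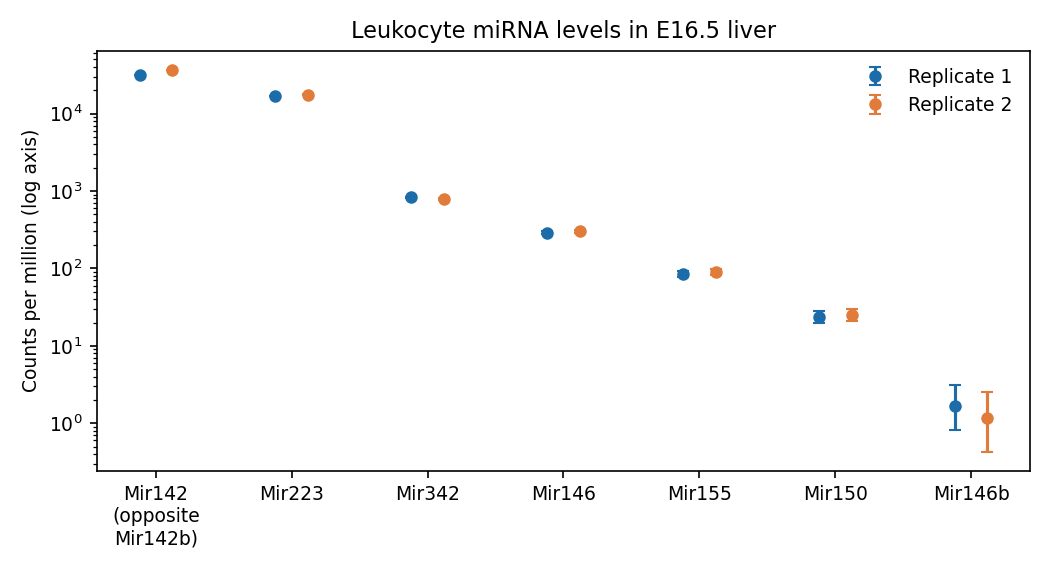
Level of each leukocyte miRNA in CPM on a log axis, replicate 1 in blue and replicate 2 in orange, with 95% Poisson intervals for counting error. The levels run from 31509 and 36500 CPM for Mir142 down to 1.69 and 1.18 CPM for Mir146b, and libraries of neighbouring members do not overlap.

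**Figure D3:**
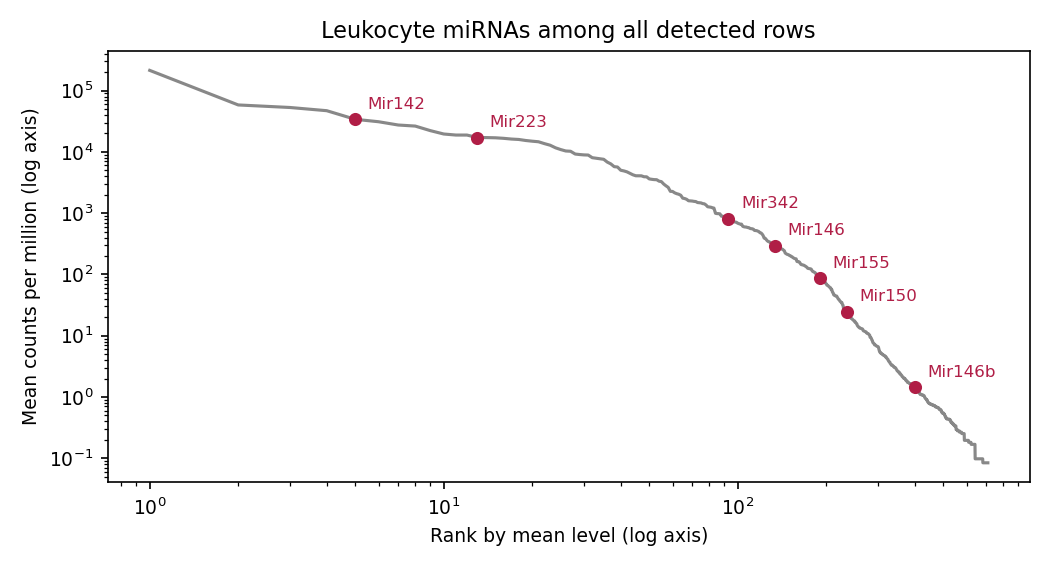
Mean CPM against rank for all rows with a count, both on log axes, with the leukocyte miRNAs as red points. Mir142 is at rank 5 and Mir223 at rank 13 by mean level, Mir342 at rank 93, Mir146 at 134, Mir155 at 191, Mir150 at 235 and Mir146b at 400. Other miRNAs counted opposite a row, such as Mir409, are not in this ranking.

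The members also had a feature of position in common. None had another listed row within 10 kb on its chromosome, apart from the overlap of Mir142 with Mir142b. The nearest were a row 63.1 kb from Mir342 and 1 at 109 kb from Mir150, and the next was 596 kb from Mir142. By comparison, 120 of 183 rows at 100 CPM or more (65.6%) had another row within 10 kb, with overlapping rows counted. That set holds Mir223, Mir342 and Mir146, but not Mir142 or the members below 100 CPM. In base composition they were spread widely, from 40.0% G and C in the Mir146 hairpin to 63.1% in that of Mir150, around a median of 50.0% over rows at 100 CPM or more.

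Summed, the member counts came to 4.95% of the size of the annotated-strand total in replicate 1 and 5.52% in replicate 2, a mean of 5.24% ± 0.41 (SD, n = 2). This is a ratio and not a share, since the counts of Mir142 lie on the opposite strand of their row and are not in that total. Of the total of both strands, which holds them, the members made up 4.55% in replicate 1 (95% Clopper-Pearson interval 4.53% to 4.56%). In replicate 2 the share of that total was 5.07%, with bounds of 5.05% and 5.09%. Mir142 made up 63.7% and 66.1% of the member counts, and Mir223 33.9% and 31.7%. Without Mir142 the share was 1.80% in replicate 1 and 1.87% in replicate 2. The 5 lower members held 0.122% and 0.121%, nearly the same in both libraries.

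Set beside other blood miRNAs, the place of the leukocyte group turned on Mir142, and on Mir126a of the stem and progenitor list. The erythroid list (Mir144 and Mir451a, made from 1 transcript of red cell precursors, and Mir486) held 2.41% and 2.72% of the counts. The leukocyte members were 2.06-fold above it in replicate 1 and 2.03-fold above in replicate 2. Without Mir142 they were below it, at 0.747 and 0.690 of its level. The list of 9 stem and progenitor miRNAs held 8.50% and 8.69%, above the leukocyte members by 1.72-fold and 1.57-fold. It includes Mir126a, which endothelial cells also make and which alone held 4.55% and 4.85%. Without Mir126a this list was below the leukocyte members with Mir142 in both libraries. The hepatocyte list of Mir122, Mir192 and Mir148a, the check of the labelled tissue, held 21.8% and 22.0%, 4.41-fold and 3.99-fold above the leukocyte members. Each of these orders held in both pools. Shared words are given here for the members only, and multimapping reads are in no gene count. Sums of the other lists may thus be too low, and the leukocyte group too high beside them, by an unknown amount.

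**Figure D4:**
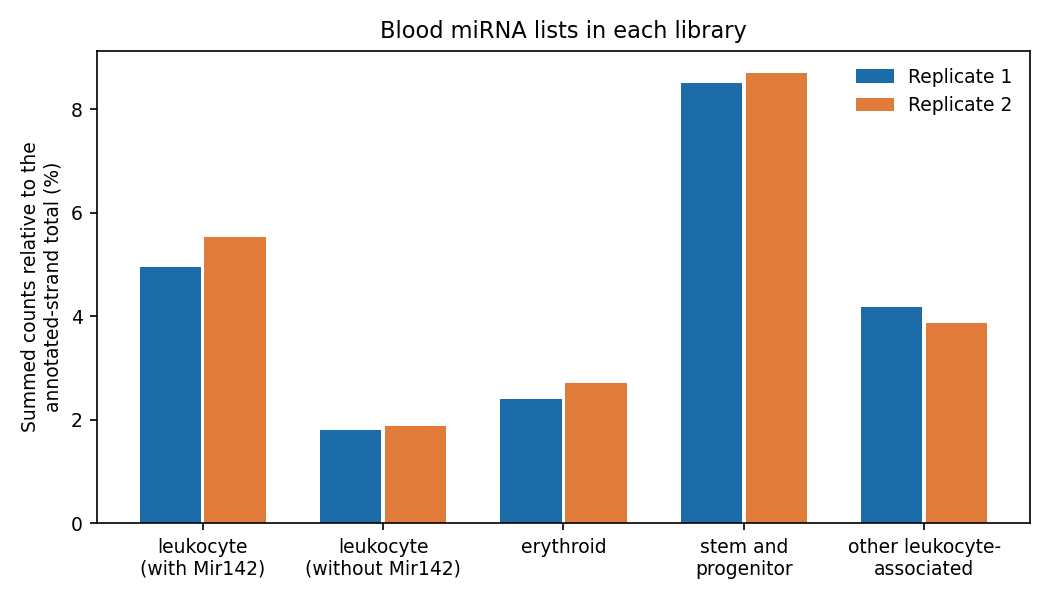
Summed counts of 4 blood miRNA lists, and of the leukocyte list without Mir142, relative to the annotated-strand total in percent, replicate 1 in blue and replicate 2 in orange. Every bar but that of the leukocyte list with Mir142 is a share of that total, which does not hold the Mir142 counts. The leukocyte list is above the erythroid list with Mir142 (4.95% and 5.52%) and below it without (1.80% and 1.87%).

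The miRNAs whose level in both libraries was nearest to that of a member were found as the 2 rows with the smallest distance in log2(CPM + 0.5). For Mir223 they were the erythroid Mir451a (16467 and 17488 CPM, distance 0.026) and Mir130a of the stem and progenitor list (16428 and 17800 CPM, distance 0.037). For Mir142 they were Mir335 (28966 and 33149 CPM, distance 0.18) and Mir411 (distance 0.44), for Mir342 Mir187 and Mir188, and for Mir150 Mir8114 and Mir3105. Likeness over 2 libraries of 1 group is likeness of level and of the step between pools only.

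A second list held 18 further miRNAs that leukocytes express but other tissues make as well, among them Mir21a with the genes Mir29a, Mir181a-1, Mir221 and Mir222. All 18 were detected, and they held 4.18% and 3.88% of the counts. Mir21a, a miRNA of activated immune and stromal cells, was the highest of them with 18656 and 18974 CPM, 44.6% and 49.0% of the list's counts, followed by Mir23a (13604 and 12117 CPM) and Mir652 (7213 and 5534 CPM). Mir181a-1, active in lymphoid progenitors, was at 329 and 267 CPM, Mir221 at 318 and 298 CPM and Mir222 at 127 and 125 CPM. The median level of the 18 was 136 CPM, against 295 CPM over the members. Several of these genes, such as Mir29b-1, Mir29b-2 and the copies of Mir181, make the same or nearly the same mature sequence and may be counted low.

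The difference between the pools was then measured for each member. The total on the annotated strand was 5930074 counts in replicate 1 and 5102289 in replicate 2. Rows with at least 10 counts in the sum of both libraries entered a conditional binomial test, exact and two-sided. It compares 2 libraries and not conditions and covers counting error only. P-values were adjusted after Benjamini and Hochberg over all 441 counts tested, with a threshold of 0.05.

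Of the 7 member counts, 2 passed, both higher in replicate 2. Over all counts tested 194 passed (44.0%), 78 higher in replicate 2 (17.7%) and 116 lower (26.3%). The members' 28.6% was not tested against that background. With trimmed-mean (TMM) or DESeq2 scaling 3 of the 7 passed. With TMM scaling the split over all rows was 98 higher and 96 lower, against 78 and 116 here. Replicate 2 had 1.16-fold more Mir142 than replicate 1 (log2 0.21, counting SE 0.005), with an adjusted p of the exact test too small for the computer's number format. Mir223 was 1.05-fold higher (log2 0.06, counting SE 0.007, adjusted p of the exact test 4.02e-21). At counts of this size the test passes very small steps. Among the 184 counts at 100 CPM or more, the log2 ratio of Mir142 was larger in size than that of 100 and smaller than that of 83. That of Mir223 was larger than that of 33 and smaller than that of 150. These places hold for scaling by the annotated-strand total, under which the median log2 ratio of these 184 counts was -0.08. With TMM or DESeq2 scaling the log2 ratio was 0.29 for Mir142 and 0.14 for Mir223.

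When a spread between the libraries, pooled over rows, was added to the counting error, no member passed. That test was edgeR's exact test with the common biological coefficient of variation of 22.9%, estimated from the same libraries. The unadjusted p-values of the members under it ran from 0.652 to 0.892, none under 0.05, while 22 of all rows were under 0.05 and 2 (0.454%) passed after adjustment. Since that coefficient comes from the 2 libraries that are compared, steps as small as those of Mir142 and Mir223 could not pass, and this result says nothing of whether the pools differ.

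The 5 other members did not pass the exact binomial test. Mir342 had a log2 ratio of -0.06 (counting SE 0.03, adjusted p 0.076), Mir146 of 0.07 (SE 0.05, adjusted p 0.32) and Mir155 of 0.12 (SE 0.09, adjusted p 0.35). Mir150 had a log2 ratio of 0.09 with an SE of 0.18, and Mir146b of -0.47 with an SE of 0.72, too wide to show a difference of that size. The sign for Mir342 turned with TMM or DESeq2 scaling, to 0.016 and 0.014, where it did not pass either. Mir146 passed with both of these scalings (log2 0.15, exact binomial adjusted p 0.0096 and 0.011). The median log2 ratio of the 7 was 0.07, beside -0.08 over all 441 counts tested.

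**Figure D5:**
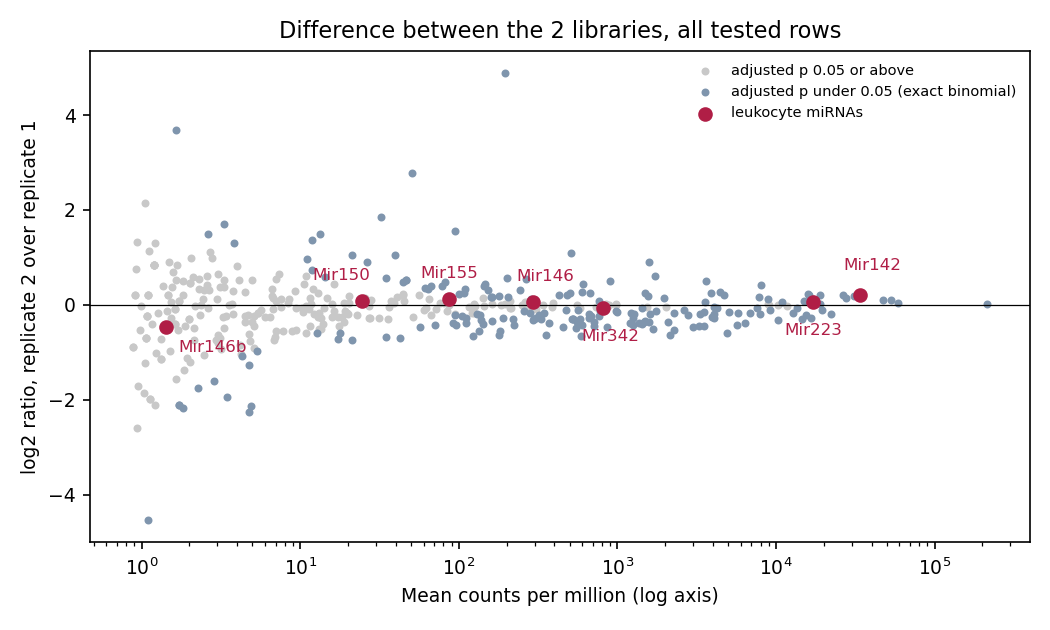
Log2 ratio of replicate 2 over replicate 1 against mean CPM (log axis) for the 441 counts tested, with those past the exact binomial test in blue-grey and the leukocyte miRNAs in red. Mir142 lies at 0.21 and Mir223 at 0.06, inside the range of the counts at 100 CPM or more.

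The spread of the abundant members was near or below that of other rows. The coefficient of variation over the 2 libraries was between 3.13% and 10.4% for the 4 at 100 CPM or more, with a median of 9.82% over the 184 counts at that level. Other cell-type lists moved between the pools as well. The epithelial and biliary list, all 5 members of which were higher in replicate 2 past the test, held 0.427% in replicate 1 and 0.638% in replicate 2 (log2 ratio 0.58). The erythroid list had a log2 ratio of 0.17, the mesenchymal list (Mir143, Mir145a and Mir214) of 0.18, the stem and progenitor list of 0.03 and the hepatocyte list of 0.01, beside 0.16 for the leukocyte members. These sums do not stand for every gene of a list. Past the test, 2 erythroid genes were higher and Mir486 lower, 2 mesenchymal genes were higher and Mir214 lower (log2 -0.44), and 4 stem and progenitor genes were higher and 4 lower. Of the 18 other leukocyte-associated miRNAs, 2 were higher (Mir21a at log2 0.02 and Mir181b-2 at 0.44) and 4 lower (Mir23a, Mir29a, Mir181a-1 and Mir652, from -0.17 to -0.38) in replicate 2, with a median of -0.08. The part of the cell composition of the pools in the step of Mir142 was not tested.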

How the data were processed

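Small RNA of 2 pooled liver samples was sequenced, and per the labels the size range was below 30, with no unit given. Raw counts per miRNA gene row were deposited by the authors, 1 table per library with no header. They name assembly mm10 and GENCODE annotation M4 per the text deposited with the tables. The aligner and counter were not given in the sources used here, and molecular identifiers are not mentioned in them, so counts may hold PCR copies, and intervals and floors cover counting error only.

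Each of the 1973 rows has a count irrespective of strand, which equalled the sum of 2 strand-specific counts in every row. The labels and files do not say which strand each of these columns holds. The second column of counts was taken as the annotated strand because it held the larger total in both libraries, 5930074 against 524695 and 5102289 against 456675. For Mir142b the third was taken. The 4 tally rows stayed out of totals: of 14129766 and 12186088 reads tallied in replicates 1 and 2, 42.0% and 41.9% were annotated-strand counts, 21.8% and 21.2% unmapped and 4.47% and 5.00% outside listed genes. Names and positions came from GENCODE M21 on the same assembly, with 1894 rows matched, and sequences from RefSeq on GRCm38.p6.

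CPM, shares, SDs and log2 ratios (0.5 added to each count) were computed from the counts with Python 3.11.15 and scipy 1.17.1. The exact binomial p is the smaller tail doubled. edgeR 4.0.16 and DESeq2 1.42.0 in R 4.3.3 gave alternative scalings, and edgeR an exact test with a common dispersion from an intercept-only model. A quasi-likelihood test has no contrast within 1 group. The exact binomial test was checked on simulated counts with known changes and counting error only. That check cannot show how the test behaves where libraries differ by more than counting error. Named genes were all members, the 2 nearest rows to each of Mir223, Mir142, Mir342 and Mir150, and members of lists as examples that were picked with the values known. Members and lists were chosen with earlier results of these data known. The labels call the libraries biological replicates. Alternatives covered the total, the strand, scaling, count filter, pseudocount, shared words and each replicate left out.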

Additional observations from a re-analysis of the deposited data

How the results depend on the processing

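The summed member counts, 5.24% of the size of the annotated-strand total, depended on the total and on the strand taken for Mir142, whose counts are not in that total. The value was 4.81% with counts irrespective of strand as the total, 4.81% with counts of both strands summed (the same total, which holds them), 2.20% of all reads tallied and 6.66% without the most abundant gene in the total. It was 1.84% with the annotated strand of the Mir142b row. From 1 library alone it ranged from 4.95% to 5.52%, and the ratio of Mir142 to Mir223 from 1.88 to 2.08. Of the 7 members, 2 passed the exact binomial test, 3 with TMM or DESeq2 scaling, and 0 under edgeR's exact test with a common dispersion, where 2 rows passed in place of 194; its dispersion comes from the same 2 libraries, so small steps could not pass. Mir342 changed sign, from -0.06 to 0.016 (TMM) and 0.014 (DESeq2). No other member changed sign under the alternatives run. No paired analysis was possible because there is 1 group. Depth limits Mir146b, with 10 and 6 counts, and the annotated strand of Mir142b, with 1 and 1.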
